A study of Mus musculus with 18 samples.

Results

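The oxidative phosphorylation subunit genes are the 98 of 55414 gene identifiers in the deposited table whose symbol names a subunit of respiratory complex I, III or IV or of the ATP synthase (complex V). They were chosen by symbol alone: Ndufa, Ndufb, Ndufc, Ndufs or Ndufv followed by a digit, names starting with Uqcr, Cox4 to Cox8 or Atp5, and the mt-Nd, mt-Co, mt-Atp and mt-Cytb genes of mitochondrial DNA, with 8 names containing -ps left out. Of the 98, 85 were nuclear genes (40 of complex I, 8 of complex III, 19 of complex IV and 18 of complex V) and 13 were mitochondrial genes (7, 1, 3 and 2 in the same order).

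RNA was sequenced from epithelial cultures of C57BL/6 wild-type mouse small intestine, 18 libraries in 6 groups of 3, with all cultures harvested on day 6. The villus-derived group (VIL) started from villi of the 3 cm next to the pylorus, embedded in collagen and fed 25% cWRNE medium, and COL_cWRNE started from crypts in the same gel and medium. The groups COL_5FU and COL_Control were grown from crypts in collagen type I with ENRW medium, and MG_5FU and MG_Control from crypts embedded in Matrigel, which is extracted from basement membrane, and fed ENR, a medium with R-spondin 1, Noggin and EGF. 5-Fluorouracil (5-FU), a pyrimidine analog that disturbs DNA synthesis and RNA processing, was present at 40 µM on days 4 to 6 in both 5FU groups. Matrix and medium changed together between the collagen and the Matrigel groups. They cannot be told apart in COL_Control against MG_Control or where 5-FU effects are compared between collagen and Matrigel. Between VIL and MG_Control the tissue of origin changed too. The labels used here do not give the full content of ENRW or cWRNE.

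Complexes I to IV pass electrons to oxygen. Complexes I, III and IV pump protons out of the mitochondrial matrix, and complex V makes ATP as protons flow back. Most subunits are coded in the nucleus and imported, while a small core is coded on both strands of the circular mitochondrial genome and transcribed there by a dedicated polymerase. In the gut these genes serve absorptive enterocytes and crypt cells alike, and several complex IV subunits have tissue-specific twins made mainly in muscle, testis or lung.

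The libraries held between 22.3 M and 34.5 M estimated counts. Summed epithelial markers (7 genes) lay between 9369 and 28120 CPM (counts scaled to a library of 1000000) in every library, so the epithelial label held. VIL replicates 2 and 3 stood apart with summed fibroblast markers (7 genes) of 635 and 591 CPM, against 39.1 CPM in VIL replicate 1 and at most 13.5 CPM in any other library. Summed muscle markers (6 genes) were 110 and 112 CPM in VIL replicates 2 and 3, against 13.9 CPM in VIL replicate 1 and at most 7.25 CPM elsewhere. Summed immune markers (6 genes) were 74.5, 243 and 386 CPM in VIL replicates 1 to 3, against at most 66.2 CPM in the other groups. Summed endothelial markers (4 genes) were 1.98, 3.83 and 30.6 CPM in VIL replicates 1 to 3, against at most 1.64 CPM in the other groups. Results on VIL are therefore given also with replicates 2 and 3 left out. COL_Control replicate 3 held 738 counts on 4 Y-linked genes beside 4893 Xist counts, whereas replicate 2 of each group was at 3323 to 5577 Y-linked and at most 15 Xist counts, and the remaining libraries had at most 1 Y-linked count. Where leaving out that library ended the call of a named subunit gene, the value without it is given.

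The promoters of 4 nuclear genes that the results turn on are shown because the nuclear subunit genes are known targets of the NRF1, GABP (ETS family) and YY1 transcription factors. Each window runs from 250 bases before to 50 after the start of the gene (RefSeq, GRCm38.p6), 5′ to 3′ on the gene's strand, with motif matches in capitals.
Uqcrc1, chr9:108936398-108936697, plus strand: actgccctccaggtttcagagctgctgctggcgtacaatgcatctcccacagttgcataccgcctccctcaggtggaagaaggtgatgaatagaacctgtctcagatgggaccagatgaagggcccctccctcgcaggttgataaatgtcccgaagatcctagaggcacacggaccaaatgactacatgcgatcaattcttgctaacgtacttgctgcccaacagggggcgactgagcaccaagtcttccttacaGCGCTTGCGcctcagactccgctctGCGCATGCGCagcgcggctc
Ndufb6, chr4:40279372-40279671, minus strand: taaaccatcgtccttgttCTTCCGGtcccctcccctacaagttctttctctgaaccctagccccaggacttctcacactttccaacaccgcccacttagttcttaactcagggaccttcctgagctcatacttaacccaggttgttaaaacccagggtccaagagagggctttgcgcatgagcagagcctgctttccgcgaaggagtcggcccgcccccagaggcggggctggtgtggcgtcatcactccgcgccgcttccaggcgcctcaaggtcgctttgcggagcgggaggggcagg
Cox6b1, chr7:30626065-30626364, minus strand: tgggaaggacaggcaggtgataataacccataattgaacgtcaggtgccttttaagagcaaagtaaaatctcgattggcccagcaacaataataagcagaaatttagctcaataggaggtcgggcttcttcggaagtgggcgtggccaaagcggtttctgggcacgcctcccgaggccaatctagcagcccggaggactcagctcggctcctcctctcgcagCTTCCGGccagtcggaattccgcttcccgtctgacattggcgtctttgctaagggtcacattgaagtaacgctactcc
Cox6b2, chr7:4753045-4753344, minus strand: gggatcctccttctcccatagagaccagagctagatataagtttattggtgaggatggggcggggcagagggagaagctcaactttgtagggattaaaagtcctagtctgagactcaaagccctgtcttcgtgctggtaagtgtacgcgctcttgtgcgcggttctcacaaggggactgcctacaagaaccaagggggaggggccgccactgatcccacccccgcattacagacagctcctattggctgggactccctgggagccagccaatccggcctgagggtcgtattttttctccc
The motifs searched for on both strands were GCGCNTGCG for NRF1, CCGGAAG for ETS and ATGGCGGC for YY1, and matches of one motif on opposite strands can overlap, as in Uqcrc1. In all, 65 nuclear genes had a RefSeq promoter window. The NRF1 letters occurred in 32.3% of these genes, against 7.1% of all 27025 genes with a window. The ETS letters occurred in 21.5% of them, against 9.9% of all genes, and the YY1 letters in 9.2%, against 2.6%. Uqcrc1, a core protein of complex III, held NRF1 matches, Ndufb6 and Cox6b1 held 1 ETS match each, and Cox6b2, the testis twin of Cox6b1, had no match to any of the 3. A match is a description of the letters and not of binding.

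Per length, the nuclear genes spanned a wide range of levels. The highest mean level over the 18 libraries was 2425 TPM (a scale per transcript length that sums to 1000000 in a library) for Atp5b, the catalytic beta subunit of the ATP synthase. In the other complexes the highest were Cox8a at 1496 TPM, Uqcr11 at 1495 TPM and Ndufa4 at 1024 TPM. Ndufa4 carries a complex I name but is now known to belong to complex IV. Among tested genes the lowest were Ndufa4l2 at 2.52 TPM, Cox7a1 at 37.0 TPM, Atp5s at 37.8 TPM and Uqcrc2 at 237 TPM. Of the mitochondrial genes, mt-Co3 was highest at 4494 TPM and mt-Nd4l lowest at 188 TPM. In all, 77 nuclear and 13 mitochondrial genes passed the filter on low counts in every fit.

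The 8 that did not pass were mostly tissue-specific twins or near copies. Cox7b2, Cox8b, Cox8c and a second Atp5o identifier had 0 counts in all 18 libraries. Cox4i2, the lung and vessel twin of Cox4i1, had 1, 9 and 36 estimated counts in VIL replicates 1 to 3, 1 count in COL_5FU and 0 in the other 14 libraries. Its counts thus came with VIL libraries 2 and 3, in which fibroblast and muscle markers were also present, and the part of those cells in them was not tested. Cox6a2, the heart and muscle twin, had at most 1 count in each MG_5FU library, against 8, 8 and 9 counts in MG_Control. It had 4, 2 and 11 counts in VIL, 1, 5 and 3 in COL_cWRNE, and 0 in all COL_5FU and COL_Control libraries. Ndufa11b and Ndufs6b, near copies of Ndufa11 and Ndufs6, had 65.9 and 59.0 counts in total. Ndufb4 with Ndufb4c, and Cox6c with Cox6c2, are similar enough that the counting could have split reads between them, so their values are uncertain.

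The summed nuclear genes were at 18500, 15310 and 10850 CPM in VIL, 15220, 12940 and 14220 CPM in COL_cWRNE, 17210, 16910 and 14970 CPM in COL_5FU, and 14940, 13930 and 16280 CPM in COL_Control. The same sum was 23080, 20000 and 20560 CPM in MG_5FU and 23420, 23000 and 19770 CPM in MG_Control. On this scale every Matrigel library lay above every collagen library. As a share of a library's TPM, the nuclear genes were at 4.44, 4.02 and 4.12% in MG_5FU and 5.49, 5.24 and 4.89% in MG_Control. COL_5FU, at 4.59, 4.45 and 4.1%, and COL_Control, at 4.08, 4.02 and 4.47%, overlapped with MG_5FU by that share. MG_5FU lay below MG_Control by it, without overlap. The summed mitochondrial genes were at 10910, 11180 and 9789 CPM in VIL, 6272, 5510 and 5516 CPM in COL_cWRNE, 7107, 7892 and 7684 CPM in COL_5FU, and 6556, 5817 and 7333 CPM in COL_Control. They were at 14680, 9612 and 12060 CPM in MG_5FU and 11420, 10950 and 9224 CPM in MG_Control. In CPM, VIL lay with the Matrigel groups, above all other collagen libraries. As a share of TPM, the mitochondrial genes were at 2.43, 1.89 and 2.23% in MG_5FU and 2.40, 2.38 and 2.25% in MG_Control. These groups overlapped, and the mean was 2.18% in MG_5FU and 2.34% in MG_Control. The mean was thus higher in MG_5FU by CPM and lower by TPM share. In bulk cultures, fewer cells of a type and less RNA per cell cannot be told apart.

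The ratio of mitochondrial to nuclear counts within a library does not depend on scaling between libraries. It was 0.590, 0.730 and 0.902 in VIL, 0.412, 0.426 and 0.388 in COL_cWRNE, 0.413, 0.467 and 0.513 in COL_5FU, and 0.439, 0.417 and 0.451 in COL_Control. It was 0.636, 0.481 and 0.587 in MG_5FU and 0.488, 0.476 and 0.466 in MG_Control. VIL libraries did not overlap with any collagen library, whereas MG_5FU overlapped with MG_Control. On the log2 scale the difference was 0.84 for VIL against COL_cWRNE (pooled SD of the libraries 0.22), and 0.53 with VIL replicate 1 alone. It was 0.24 for MG_5FU against MG_Control (SD 0.15), with 0.38, 0.01 and 0.33 in the same-numbered pairs, and 0.09 for COL_5FU against COL_Control (SD 0.12), with -0.09, 0.16 and 0.19 in the pairs. For COL_Control against MG_Control it was -0.13 (SD 0.05), and -0.31 when the 2 mitochondrial genes with the most counts, mt-Co1 and mt-Co3, were left out of the sum. For VIL against MG_Control it was 0.61 (SD 0.22), and smaller without those 2 genes.

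**Figure D1:**
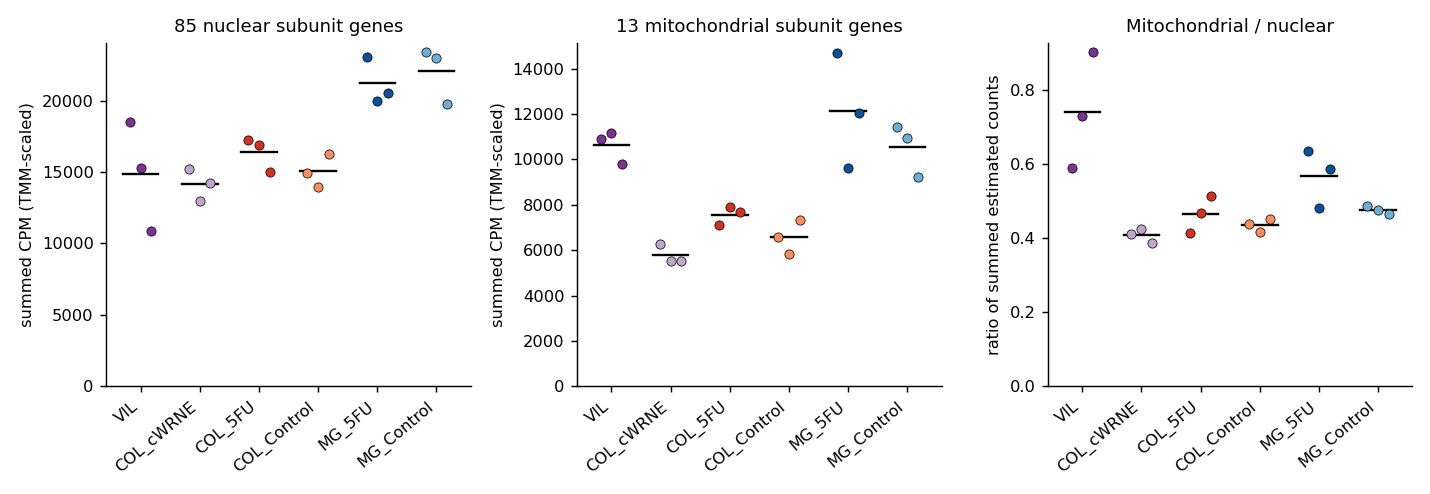
Summed level of the 85 nuclear and the 13 mitochondrial subunit genes (CPM with TMM scaling) and the ratio of their summed estimated counts, for each library (points, 3 per group) with the group mean (line). Matrigel libraries are highest for the nuclear sum, and VIL, at 0.590 to 0.902, has the highest mean ratio.

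The first comparison asked how 5-FU changed crypt organoids in Matrigel. Of the nuclear subunit genes 5 of 77 rose (6.5%) and 4 fell (5.2%), where 19.2% of all 16611 genes tested rose and 11.7% fell, by edgeR's quasi-likelihood test at an adjusted p under 0.05. Their median log2 fold change was -0.01, beside 0.06 for all genes. Of the 13 mitochondrial genes 4 rose and none fell (0 of 13 also at an unadjusted p under 0.05 and by DESeq2), with a median of 0.30. The 5 nuclear genes that rose were Ndufa1, Ndufb6 and Ndufs5, small accessory subunits of complex I, Uqcrc1 and Cox6b2. Those that fell included Ndufs1 and Ndufs8, catalytic core subunits of complex I, and Cox7a2l, counted here with complex IV.

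Ndufb6 had 209, 178 and 199 CPM in MG_5FU and 150, 137 and 106 CPM in MG_Control, and the groups did not overlap. Its log2 fold change was 0.63 ± 0.13 (SE; adjusted p = 0.00177, edgeR). Uqcrc1 had 1231, 1240 and 1180 CPM in MG_5FU and 1034, 1069 and 995 CPM in MG_Control, a log2 fold change of 0.29 ± 0.08 (adjusted p = 0.0101, edgeR), with 5-FU libraries all higher; with library totals it was not called in either matrix, nor, in Matrigel, without the filter. No complex V gene was called.

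The mitochondrial genes that rose with 5-FU in Matrigel were mt-Nd4, mt-Nd5, mt-Nd6 and mt-Cytb, coding for proton-pumping membrane subunits and for the cytochrome b of complex III. mt-Nd5 had 676, 501 and 594 CPM in MG_5FU and 426, 414 and 375 CPM in MG_Control, with no overlap and a log2 fold change of 0.60 ± 0.13 (adjusted p = 0.00306, edgeR). mt-Cytb had 2387, 1613 and 1997 CPM in MG_5FU and 1566, 1455 and 1261 CPM in MG_Control, a log2 fold change of 0.54 ± 0.13 (adjusted p = 0.00557, edgeR). mt-Nd4 and mt-Nd6 changed by 0.58 ± 0.18 and 0.60 ± 0.21 (adjusted p = 0.0235 and 0.045, edgeR). Their groups overlapped: MG_5FU replicate 2 was at 506 and 59.8 CPM, below MG_Control replicate 1 at 565 and 74.3 CPM. Both calls were lost with library totals and with only the compared groups, and that of mt-Nd6 also with RLE size factors. MG_5FU replicate 1 was the highest library for all 4 genes. Without it, or without MG_5FU replicate 3 or MG_Control replicate 2 or 3, 2 mitochondrial genes were called. In these fits mt-Nd4 and mt-Nd6 were not called. Without MG_5FU replicate 2, 7 mitochondrial genes were called. Both mitochondrial ribosomal RNAs also rose, and mt-Rnr2 was at 5266, 2469 and 3383 CPM in MG_5FU and 1988, 1770 and 1377 CPM in MG_Control, a log2 fold change of 1.17 ± 0.21 (adjusted p = 0.000902, edgeR).

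Summed absorptive enterocyte markers (10 genes) were 11590 to 13000 CPM in MG_5FU and 4426 to 5247 CPM in MG_Control, and summed Paneth markers (6 genes) were 35840 to 37930 CPM in MG_5FU and 10420 to 11640 CPM in MG_Control. Summed crypt stem markers (6 genes) were 1241 to 1634 CPM in MG_5FU and 4390 to 5495 CPM in MG_Control. Olfm4 made up most of that difference: without it the sums were 791 to 921 CPM in MG_5FU and 1059 to 1222 CPM in MG_Control. Sox9, another gene of the list, was higher in every 5-FU library, at 269, 284 and 267 CPM in MG_5FU and 143, 160 and 173.5 CPM in MG_Control. The part of these cell types in the results was not tested. When TMM scaling was replaced by library totals, the median of all genes in this comparison moved to -0.09 and the nuclear calls to 2 higher and 12 lower, and 44.6% of all called genes were higher instead of 62.2%.

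The next comparison asked the same of crypt organoids in collagen. Here 19 of 77 nuclear genes rose (24.7%) and 8 fell (10.4%), where 18.6% of all 16611 genes rose and 16.7% fell (edgeR). The median was 0.15, beside -0.03 for all genes. Genes with a complex I symbol were 38 of the 77 tested, 14 of the 19 that rose and 5 of the 8 that fell. Ndufa4, which belongs to complex IV despite its symbol, is counted among the 14. Of the genes with a complex I symbol, Ndufa1, Ndufb6, Ndufc2, Ndufs5, Ndufa12 and Ndufb7 were highest, at log2 fold changes of 0.68 to 0.95. In complex IV Cox6b2, Cox6b1 and Cox5b rose and Cox7a2l fell (not called without COL_Control replicate 3, at -0.33, adjusted p = 0.0675, edgeR), in complex III Uqcrc1 rose and Uqcrfs1 fell, and in complex V Atp5l rose and Atp5a1 fell. Of the 13 mitochondrial genes mt-Nd3, mt-Cytb, mt-Co3 and mt-Atp6 rose and none fell (0 also at an unadjusted p under 0.05), with a median of 0.15.

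Ndufa1, a small membrane-arm subunit on the X chromosome, had 141, 129 and 94.6 CPM in COL_5FU and 63.1, 54.4 and 66.8 CPM in COL_Control, a log2 fold change of 0.95 ± 0.15 (adjusted p = 0.000364, edgeR). Ndufc2, another membrane-arm accessory subunit, had 145, 140 and 113 CPM in COL_5FU and 73.5, 65.7 and 78.8 CPM in COL_Control, or 0.84 ± 0.12 (adjusted p = 0.00014, edgeR). Neither gene's groups overlapped. Ndufs1, the largest core subunit of complex I with iron-sulfur clusters, went the other way, with 103, 107 and 130 CPM in COL_5FU and 169, 199 and 200 CPM in COL_Control. It fell by 0.77 on the log2 scale (SE 0.12; adjusted p = 0.000332, edgeR) and, in Matrigel, by 0.50 (SE 0.12; adjusted p = 0.00681, edgeR).

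Among 6 nuclear core subunits of complex I (Ndufs1, Ndufs3, Ndufs7, Ndufs8, Ndufv1 and Ndufv2), 1 rose and 2 fell with 5-FU in collagen, with a median of -0.19. Among 31 accessory and other Nduf genes, 13 rose and 2 fell, with a median of 0.35. In Matrigel 0 of these 6 core genes rose and 2 fell, and of the 31 others 3 rose and none fell. This split was drawn after the values were seen and is a description. The core genes also had longer transcripts: a relative length taken from deposited counts over TPM, with 1 for the median gene, had a median of 0.372 in the core genes and 0.16 in the others. Over all 77 nuclear genes in collagen, Spearman's rho between relative length and log2 fold change was -0.40 (all genes: -0.01). In Matrigel it was -0.10 (all genes: -0.04). Genes share libraries and are not replicates, so no p is given, and the part of length in these results was not tested.

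**Figure D2:**
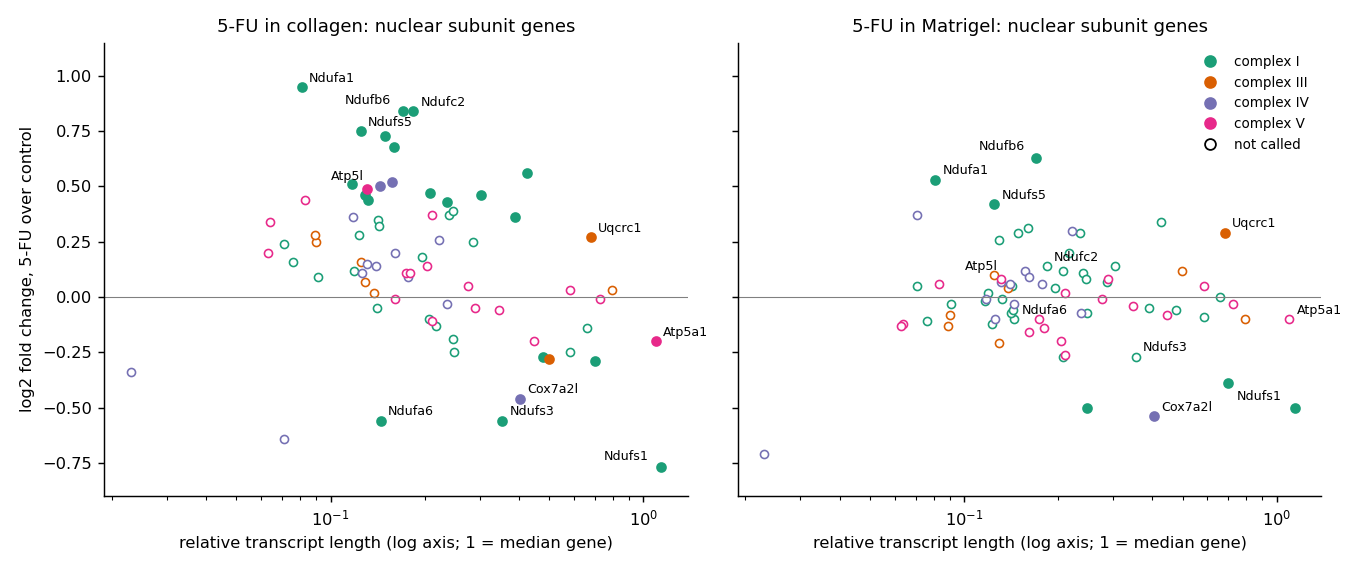
Log2 fold change with 5-FU against relative transcript length (log axis) for the nuclear subunit genes, coloured by complex, with filled points for called genes and open points for the rest. In collagen, Ndufa1 (0.95) and Ndufc2 (0.84) lie among short genes and Ndufs1 (-0.77) at the long end. Cox6b2 and Ndufa4l2 lie outside the vertical range and are not drawn.

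In complex III, Uqcrc1 had 793, 790 and 763 CPM in COL_5FU and 639, 592 and 678 CPM in COL_Control (0.27 ± 0.08, adjusted p = 0.0153, edgeR). The Rieske iron-sulfur protein Uqcrfs1 fell by 0.28 (SE 0.10; adjusted p = 0.0357, edgeR), a call that no filter, only the compared groups or leaving out any of the 6 libraries except COL_Control replicate 1 ended. Without COL_Control replicate 3 it was at -0.19 (adjusted p = 0.181, edgeR). In complex V Atp5l, a small membrane subunit, had 116, 111 and 82.6 CPM in COL_5FU and 73.4, 59.9 and 82.0 CPM in COL_Control, a log2 fold change of 0.49 ± 0.15 (adjusted p = 0.0195, edgeR). Its lowest 5-FU library was close to its highest control library, and it was not called without COL_Control replicate 2 or COL_5FU replicate 1 or 2. The catalytic alpha subunit Atp5a1 fell by 0.20 (SE 0.07; adjusted p = 0.0491, edgeR), a call that RLE size factors, no filter, only the compared groups or leaving out any of the 6 libraries ended, while Atp5b was at -0.01 ± 0.07 and the c-ring genes Atp5g1, Atp5g2 and Atp5g3 were at -0.01, 0.37 and -0.11, none of them called. Without COL_Control replicate 3, Atp5a1 was at -0.17 (adjusted p = 0.162, edgeR). The reference subunits Ndufv1, Cox4i1 and Cox5a were not called in either matrix.

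Without COL_Control replicate 3, 19 nuclear genes were higher and 2 lower in collagen. Without COL_Control replicate 2, COL_5FU replicate 1 or COL_5FU replicate 2, 15, 16 and 17 nuclear genes were called in all. Without COL_Control replicate 2 or COL_5FU replicate 2, 1 mitochondrial gene was called. With library totals the median of all genes moved to -0.13, 11 nuclear genes were higher and 13 lower, and 41.7% of all called genes were higher instead of 52.8%. Summed crypt stem markers were 898 to 1079 CPM in COL_5FU and 1537 to 1681 CPM in COL_Control, although 2 of the 6 were higher in every 5-FU library. These were Sox9, at 405, 360 and 338 CPM in COL_5FU and 170, 159 and 142.5 CPM in COL_Control, and Ascl2, at 38.4, 44.6 and 47.9 CPM in COL_5FU and 33.2, 34.2 and 29.5 CPM in COL_Control. Enterocyte markers were 246 to 354 CPM in COL_5FU and 474 to 1213 CPM in COL_Control, and proliferation markers (5 genes) were 657 to 919 CPM in COL_5FU and 1111 to 1226 CPM in COL_Control. The part of these cells was not tested.

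Cox6b2, normally a testis subunit of complex IV, had the largest log2 fold change among the tested subunit genes in both 5-FU comparisons. It had 17.2, 10.9 and 7.94 CPM in MG_5FU and 2.78, 1.47 and 1.28 CPM in MG_Control, a log2 fold change of 2.77 ± 0.34 (adjusted p = 3.93e-05, edgeR). In collagen it had 22.7, 23.4 and 23.7 CPM in COL_5FU and 5.13, 3.66 and 2.72 CPM in COL_Control, a log2 fold change of 2.56 ± 0.33 (adjusted p = 6.25e-05, edgeR). The groups did not overlap in either matrix, and the difference between the matrices was -0.21 ± 0.45 (adjusted p = 0.853, edgeR). Even in COL_5FU its level of 118 ± 6.49 TPM (SD, n = 3) was small beside that of its twin Cox6b1, at 1468 ± 171 TPM (SD, n = 3). Cox6b1 had 429, 397 and 309 CPM in COL_5FU and 262, 229 and 283 CPM in COL_Control (0.52 ± 0.16, adjusted p = 0.0198, edgeR), and was not called in Matrigel. In collagen its call was lost with library totals and without COL_Control replicate 2 or COL_5FU replicate 1 or 2. Ndufa4l2, a hypoxia-responsive relative of Ndufa4, was at 0.0370, 0.355 and 0.348 CPM in COL_5FU and 0.637, 1.69 and 1.12 CPM in COL_Control and was not called (adjusted p = 0.106, edgeR).

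**Figure D3:**
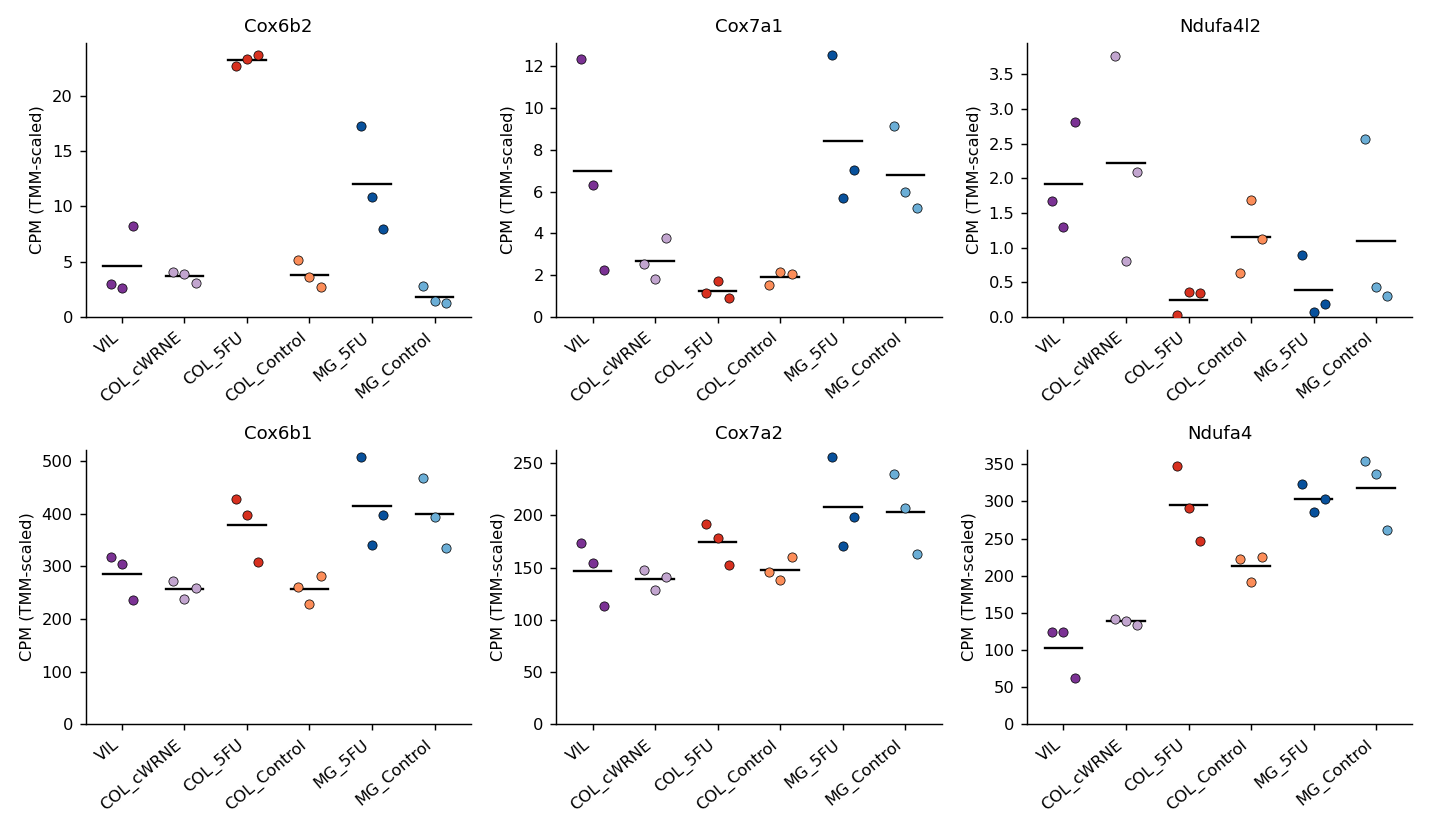
CPM in each library (points) and group mean (line) for 3 tissue-restricted genes, Cox6b2, Cox7a1 and Ndufa4l2, above the widely expressed Cox6b1, Cox7a2 and Ndufa4. Cox6b2 is highest in COL_5FU (22.7 to 23.7 CPM), Cox7a1 is low in all crypt-derived collagen groups, and Ndufa4 is lowest in VIL.

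Whether the 5-FU effect differed between collagen with ENRW and Matrigel with ENR was tested as the interaction, collagen minus Matrigel. Matrix and medium cannot be told apart in it. Of the nuclear genes 1 was called higher (1.3%) and none lower, where 1.88% of all 16611 genes were higher and 6.3% lower (edgeR). At an unadjusted p under 0.05, 7 were higher and 1 lower, and DESeq2 called 3. That gene was Ndufc2, with 145, 140 and 113 CPM in COL_5FU, 73.5, 65.7 and 78.8 CPM in COL_Control, 128, 104 and 118 CPM in MG_5FU and 120, 115 and 96.7 CPM in MG_Control. The difference between its 5-FU effects was 0.70 ± 0.17 on the log2 scale (adjusted p = 0.0206, edgeR). Without COL_5FU replicate 2 it was 0.67 and no longer called (adjusted p = 0.0559, edgeR). No mitochondrial gene was called (0 of 13; 2 lower at an unadjusted p under 0.05, and 1 by DESeq2). With RLE size factors 33.7% of all called interactions were higher instead of 23.0%.

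Without 5-FU, most nuclear subunit genes were lower in collagen than in Matrigel. In COL_Control against MG_Control 54 of 77 nuclear genes fell (70.1%) and 1 rose (1.3%), where 15.4% of all 16611 genes fell and 15.8% rose (edgeR). The median was -0.50, beside 0.04 for all genes. In each of the 4 complexes at least 63.2% of nuclear genes fell, and in complex V 15 of 17 did. Of the mitochondrial genes 11 of 13 fell, with a median of -0.77, and none rose. mt-Nd3 and mt-Atp8 were not called, at -0.30 ± 0.18 and -0.53 ± 0.22.

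Atp5g1, one of 3 genes for the same c-ring protein, had 170, 144 and 205 CPM in COL_Control and 422, 417 and 361 CPM in MG_Control, and fell by 1.21 (SE 0.13; adjusted p = 1.7e-05, edgeR). Its partners Atp5g2 and Atp5g3 fell by 0.64 and 0.70. Uqcrc2, the second core protein of complex III, had 224, 221 and 255 CPM in COL_Control and 406, 465 and 429 CPM in MG_Control and fell by 0.90 (SE 0.09; adjusted p = 9.76e-06, edgeR). Neither Atp5g1 nor Uqcrc2 overlapped between the groups. Cox7a1, the heart and muscle twin of Cox7a2, had 1.53, 2.17 and 2.07 CPM in COL_Control and 9.15, 5.97 and 5.20 CPM in MG_Control and fell by 1.82 (SE 0.35; adjusted p = 0.00158, edgeR), while Cox7a2 fell by 0.46 (SE 0.15; adjusted p = 0.0323, edgeR), not called with library totals or without replicate 1 or 2 of either group.

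Cox6b2 was the exception that rose, with 5.13, 3.66 and 2.72 CPM in COL_Control and 2.78, 1.47 and 1.28 CPM in MG_Control (1.07 ± 0.34, adjusted p = 0.0279, edgeR), and its groups overlapped. It was not called without MG_Control replicate 2 or 3 or without COL_Control replicate 1 or 2. The core subunits Ndufs1, Ndufv1, Uqcrc1, Uqcrfs1, Cox4i1, Cox5a, Atp5a1 and Atp5b all fell, by 0.49 to 0.71. Of the mitochondrial genes mt-Nd1 had 878, 879 and 1059 CPM in COL_Control and 1870, 2035 and 1727 CPM in MG_Control and fell by 1.01 (SE 0.15; adjusted p = 0.00024, edgeR). mt-Co1 had 1819, 1434 and 1996 CPM in COL_Control and 2680, 2589 and 2156 CPM in MG_Control and fell by 0.51 (SE 0.14; adjusted p = 0.0164, edgeR). Without MG_Control replicate 1 or COL_Control replicate 2, 6 and 7 mitochondrial genes were called.

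Of the nuclear genes 68 belonged to the shortest quartile of all genes with a length. In that quartile 21.9% of all genes fell between COL_Control and MG_Control, and 45 of the 68 nuclear subunit genes did. Summed enterocyte markers were 474 to 1213 CPM in COL_Control and 4426 to 5247 CPM in MG_Control, Paneth markers were 3714 to 5227 CPM in COL_Control and 10420 to 11640 CPM in MG_Control, and stem markers were 1537 to 1681 CPM in COL_Control and 4390 to 5495 CPM in MG_Control. The stem difference came from Olfm4, at 148, 103.5 and 207 CPM in COL_Control and 3245, 3929 and 4274 CPM in MG_Control; without it the sums were 1389 to 1473 CPM in COL_Control and 1059 to 1222 CPM in MG_Control, and Lgr5 was at 399, 499 and 470 CPM in COL_Control and 201, 116 and 157 CPM in MG_Control. The part of length and of cell makeup in the result was not tested.

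**Figure D4:**
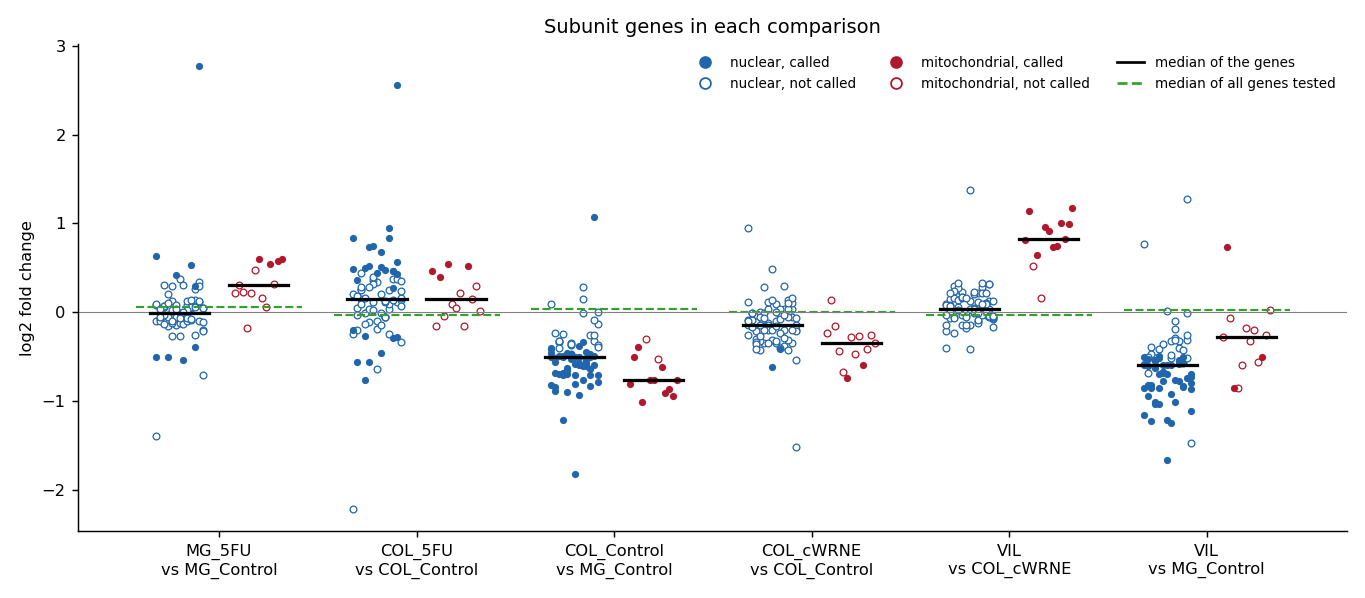
Log2 fold change of each tested nuclear (blue) and mitochondrial (red) subunit gene in 6 comparisons, filled where called, with the median of each set (black line) and of all genes tested (green dashed line). Both sets lie below all genes for COL_Control against MG_Control (medians -0.50 and -0.77), and for VIL against COL_cWRNE the mitochondrial median is 0.82 beside a nuclear median of 0.04.

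Changing the medium in collagen moved few subunit genes. Between COL_cWRNE and COL_Control 2 of 77 nuclear genes fell and none rose (1 higher and 7 lower at an unadjusted p under 0.05), where 4.85% of all 17708 genes fell and 13.1% rose (edgeR). Ndufa4 had 142, 139 and 134 CPM in COL_cWRNE and 222, 191 and 226 CPM in COL_Control, with no overlap, and fell by 0.62 (SE 0.20; adjusted p = 0.0454, edgeR). The other was Atp5s, which despite its symbol codes for a factor not counted among the ATP synthase subunits; it fell by 0.42 (SE 0.14; adjusted p = 0.0442, edgeR), and the replicate block ended that call (adjusted p = 0.0508, edgeR). mt-Cytb and mt-Nd4l fell by 0.60 and 0.74, and no mitochondrial gene rose. Leaving out any 1 of the 6 libraries ended the calls of Ndufa4 and mt-Cytb. Without COL_Control replicate 3, 0 nuclear and 0 mitochondrial genes were called. In that fit Ndufa4, Atp5s, mt-Cytb and mt-Nd4l were at -0.60, -0.44, -0.52 and -0.70 (adjusted p = 0.111, 0.099, 0.114 and 0.0703, edgeR). Leaving out any other of these 6 libraries left at most 1 nuclear and 1 mitochondrial gene called. With library totals the median of all genes moved to -0.16, the calls were 13 nuclear and 7 mitochondrial genes, all lower, and 45.2% of all called genes were higher instead of 73.0%. With only these 6 libraries in the fit, 13 nuclear and 6 mitochondrial genes were called, all lower.

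Villus-derived cultures were compared with crypt-derived ones in the same gel and medium. No nuclear gene was called between VIL and COL_cWRNE (0 of 77; 1 higher and 1 lower at an unadjusted p under 0.05; 0 also by DESeq2), where 5.68% of all 16699 genes rose and 1.96% fell (edgeR). Of the 13 mitochondrial genes 11 rose (84.6%), with a median of 0.82 beside 0.04 for the nuclear genes. mt-Co3 and mt-Nd3 were not called, at 0.52 ± 0.20 and 0.16 ± 0.34. mt-Co1, the catalytic subunit of complex IV, had 4019, 4059 and 4613 CPM in VIL and 2147, 1765 and 1866 CPM in COL_cWRNE, a log2 fold change of 1.14 ± 0.15 (adjusted p = 0.00327, edgeR). mt-Nd5 had 433, 508 and 322 CPM in VIL and 187, 176 and 201 CPM in COL_cWRNE, or 1.17 ± 0.17 (adjusted p = 0.00518, edgeR). Neither overlapped between the groups.

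With VIL replicate 1 alone in the group, 10 of 13 mitochondrial genes were higher, with a median of 0.88, and 9 of 77 nuclear genes (11.7%) were higher and none lower, with a median of 0.31, where 5.11% of all 18256 genes were higher and 2.14% lower, with a median of -0.07. That fit assumes that the lone library varies like the other groups. In it mt-Atp8 and mt-Nd4l, at 0.73 and 0.75, were not called (adjusted p = 0.123 and 0.213, edgeR), and the log2 ratio of mitochondrial to nuclear counts differed by 0.53 instead of 0.84. Without any single COL_cWRNE library, or without VIL replicate 2, 4 mitochondrial genes were called, and 13 at most in the other fits that leave out a library. With all VIL libraries and the replicate block, mt-Atp8 and mt-Nd4l were not called, at 0.73 and 0.96 (adjusted p = 0.0564 and 0.0797, edgeR). Within VIL the nuclear sum differed between libraries more than the mitochondrial one: Atp5b had 3450, 2723 and 1815 CPM, whereas mt-Co1 had 4019, 4059 and 4613 CPM. The nuclear sum was lowest in the 2 libraries with the most fibroblast markers.

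Epithelial cell type markers moved too. Summed enterocyte markers were 3526, 1547 and 1643 CPM in VIL and 521 to 547 CPM in COL_cWRNE, and stem markers were 547, 417 and 282 CPM in VIL and 683 to 964 CPM in COL_cWRNE. Summed Paneth markers were 11230, 4189 and 1257 CPM in VIL and 2926 to 4765 CPM in COL_cWRNE, and goblet markers (5 genes) were 2839, 1426 and 409 CPM in VIL and 465 to 537.5 CPM in COL_cWRNE. Within VIL the Paneth, goblet and stem sums were in the same order of libraries as the nuclear sum. The part of fibroblasts, muscle, immune, endothelial or epithelial cell types in these results was not tested.

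**Figure D5:**
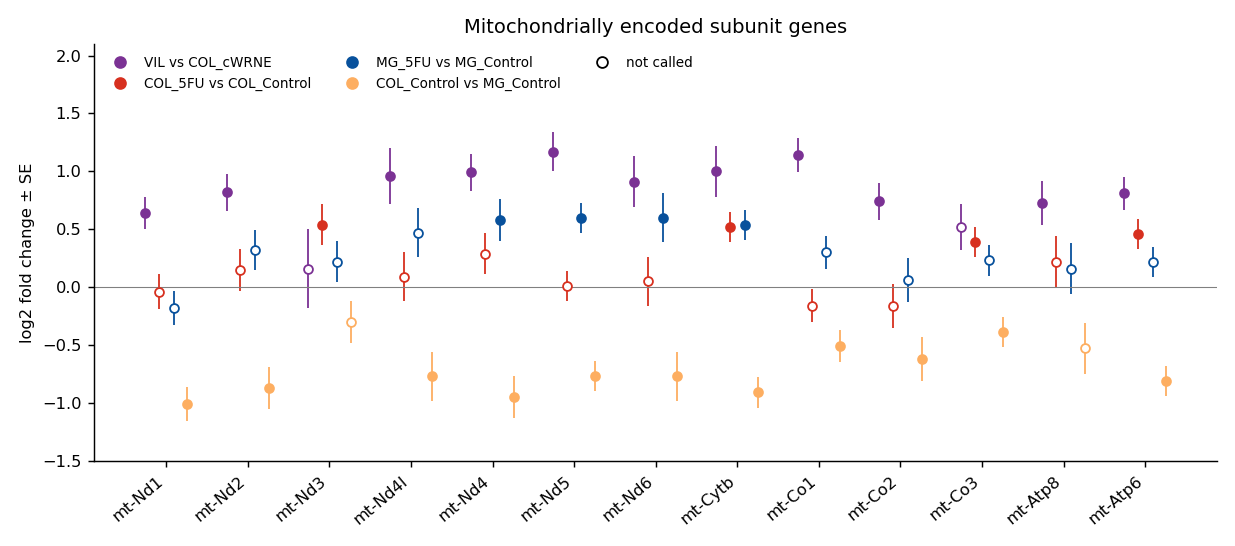
Log2 fold change with its standard error for the 13 mitochondrial subunit genes in 4 comparisons, filled where called. All 13 lie above 0 for VIL against COL_cWRNE (0.16 to 1.17) and below 0 for COL_Control against MG_Control (-1.01 to -0.30).

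Against crypt organoids in Matrigel, the villus-derived cultures had lower nuclear genes and mixed mitochondrial ones. Tissue of origin, matrix and medium changed together here and cannot be told apart, and no nuclear gene was called between VIL and COL_cWRNE. Of 77 nuclear genes 50 fell (64.9%) and none rose (1 higher at an unadjusted p under 0.05), where 19.7% of all 16699 genes fell and 27.0% rose (edgeR). The median was -0.60, beside 0.02 for all genes. Among the mitochondrial genes mt-Co1 rose, with 4019, 4059 and 4613 CPM in VIL and 2680, 2589 and 2156 CPM in MG_Control (0.73 ± 0.15, adjusted p = 0.00333, edgeR), and mt-Nd1 and mt-Nd2 fell by 0.85 and 0.50. With VIL replicate 1 alone mt-Nd1 was at -0.80 (adjusted p = 0.00273, edgeR) and mt-Nd2 at -0.43 and not called (adjusted p = 0.0884, edgeR). The mt-Nd2 call was also lost without the filter, with only the compared groups, and without MG_Control replicate 1 or 2 or VIL replicate 1 or 3. Ndufa4 had 124, 124 and 61.9 CPM in VIL and 355, 337 and 262 CPM in MG_Control and fell by 1.66 (SE 0.25; adjusted p = 0.000841, edgeR). Atp5l, Uqcr10 and Cox7c, small membrane subunits of complexes V, III and IV, fell by 1.16, 1.23 and 1.01. With VIL replicate 1 alone, 14 nuclear genes (18.2%) were lower and none higher, with a median of -0.32, where 9.21% of all genes were lower and 16.2% higher. There Ndufa4 was at -1.37 (adjusted p = 0.000542), Atp5l at -1.10 (0.00173), Uqcr10 at -0.94 (0.0166) and Cox7c at -0.71 (0.0177) by edgeR, while Atp5a1 and Ndufs1 were no longer called. Without MG_Control replicate 1 or 2, 20 and 21 nuclear genes were called. In the shortest quartile of all genes 30.2% fell here, with a median of -0.39, and 44 of the 68 nuclear subunit genes in it fell; the part of length was not tested. Summed enterocyte markers were 1547 to 3526 CPM in VIL and 4426 to 5247 CPM in MG_Control and Paneth markers 1257 to 11230 CPM in VIL and 10420 to 11640 CPM in MG_Control, and their part was not tested. This comparison and that of COL_Control against MG_Control share the MG_Control libraries.

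Related genes outside the rule were counted from 8 lists, to be read beside the shares of all genes: 19.2% rose and 11.7% fell with 5-FU in Matrigel, 18.6% rose and 16.7% fell in collagen, and 15.8% rose and 15.4% fell in COL_Control against MG_Control. Of 28 tested genes for mitochondrial DNA upkeep, transcription and RNA, 9 fell (32.1%) and none rose with 5-FU in Matrigel. In collagen 4 rose and 4 fell (14.3% each), close to or below the shares of all genes, and 16 fell (57.1%) in COL_Control against MG_Control. Tfam, which packages mitochondrial DNA, had 60.5, 59.8 and 63.7 CPM in MG_5FU and 86.1, 107 and 90.2 CPM in MG_Control and fell by 0.57 (SE 0.10; adjusted p = 0.000734, edgeR). In Matrigel the RNA-binding Lrpprc, which stabilises mitochondrial messengers, fell by 0.52 in the comparison in which mt-Nd4, mt-Nd5, mt-Nd6 and mt-Cytb rose. In collagen Pnpt1 and Lrpprc fell by 0.87 and 0.70 and the elongation factor Tefm rose by 0.86. Polrmt, the mitochondrial RNA polymerase, was not called in either.

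Of 15 regulators 2 rose (13.3%) and 4 fell (26.7%) with 5-FU in Matrigel, and 2 rose (13.3%) and 6 fell (40.0%) in collagen. With 15 genes, these counts are too small to set against the shares of all genes. Esrra, a nuclear receptor for respiratory genes, had 93.4, 80.7 and 81.0 CPM in MG_5FU and 71.7, 61.7 and 62.2 CPM in MG_Control (0.44 ± 0.09, adjusted p = 0.00181, edgeR). In collagen it rose by 0.61 (SE 0.09; adjusted p = 0.00015, edgeR). The coactivator Ppargc1b fell by 1.33 in collagen (SE 0.24; adjusted p = 0.00083, edgeR), Hnf4a fell by 0.49 in Matrigel and 0.37 in collagen, and Ppargc1a and Nrf1 were not called in either.

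Of 49 tested assembly factors 5 rose (10.2%) and 3 fell (6.1%) with 5-FU in Matrigel, both below the shares of all genes, and 17 rose (34.7%) and 3 fell (6.1%) in collagen. The copper chaperone Sco2 rose by 1.06 and 0.80 in Matrigel and collagen, the complex I factor Foxred1 fell by 0.69 and 0.92, and the complex III factor Uqcc3 rose by 1.51 in collagen (SE 0.18; adjusted p = 4.4e-05, edgeR). Of 78 mitochondrial ribosomal protein genes 6 rose (7.7%) and 3 fell (3.8%) in Matrigel, again below the shares of all genes, and 22 rose (28.2%) and none fell in collagen, with medians of 0.04 and 0.21. With library totals these were 1 higher and 16 lower in Matrigel and 12 higher and 6 lower in collagen, and the assembly factors 4 higher and 7 lower in Matrigel and 8 higher and 3 lower in collagen. Among these, Mrpl1 rose by 0.51 and Mrps27 fell by 0.48 in Matrigel, and Mrps2 rose by 0.71 in collagen. Of the 2 mitochondrial ribosomal RNAs both rose in Matrigel and neither was called in collagen, where mt-Rnr2 had 1312, 1352 and 1322 CPM in COL_5FU and 1054, 873 and 1210 CPM in COL_Control.

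Of 17 citric acid cycle and pyruvate dehydrogenase genes 2 rose (11.8%) and 6 fell (35.3%) with 5-FU in Matrigel, and 1 rose (5.9%) and 5 fell (29.4%) in collagen. Suclg2, a succinyl-CoA ligase subunit, fell by 0.53 and 0.68. Of 11 carrier and membrane genes 1 rose (9.1%) and 2 fell (18.2%) in Matrigel and 1 rose (9.1%) and 3 fell (27.3%) in collagen, counts too small to set against the shares of all genes. The uncoupling protein Ucp2 rose by 0.37 in Matrigel and the ATP carrier Slc25a4 by 0.39 in collagen. With the replicate block Slc25a4 was called in Matrigel too, at 0.27 (adjusted p = 0.039, edgeR). Of 7 genes of complex II, cytochrome c and the subunits Cyc1 and Ndufab1, Cycs and Ndufab1 rose in both matrices and Sdha, the flavoprotein of complex II, fell by 0.39 and 0.47. Sdhb was not called in either. In COL_Control against MG_Control all 7 fell, as did 52 of the 78 mitochondrial ribosomal proteins, 16 of the 17 cycle genes and 21 of the 49 assembly factors. Atpif1, the inhibitor of ATP synthase, was not called with 5-FU and fell by 0.39 in COL_Control against MG_Control (adjusted p = 0.04, edgeR).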

How the data were processed

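The estimated counts and TPM per gene were deposited by the authors for each library, per the file headers; 67.8% of the nonzero estimated counts were whole to within 1e-09, and every library's TPM added up to 1000000. The SMART-Seq mRNA kit gave the cDNA and Nextera XT the libraries, per the labels' protocols; reads were processed with bcl2fastq 2.20 and DRAGEN on GRCm39 (mm39), per the submitters' processing notes. The counting tool and annotation are not given in the sources used here. The kits do not mark strand and the counting is not stated to use it, so overlapping mitochondrial genes (mt-Nd4l with mt-Nd4, mt-Atp8 with mt-Atp6, mt-Nd6 with its opposite strand) and nuclear copies of them are uncertain.

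Symbols came from reference name tables, used for names only, and matched 52081 of 55414 identifiers. Estimated counts were rounded; the quasi-likelihood F-test of edgeR 4.0.16, run in R 4.3.3, was used after TMM scaling and filterByExpr (minimum count 10, minimum total 15). P-values were adjusted by Benjamini-Hochberg over all genes tested, and a gene with one under 0.05 was called. One fit of 12 libraries served both 5-FU comparisons, their interaction and the matrix comparison, and another of 9 libraries served VIL; COL_cWRNE against COL_Control was fitted over all 18. A standard error is the size of the log2 fold change over the square root of F. CPM use TMM scaling over 18 libraries. The fits were tested on simulated data.

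The genes, lists and comparisons were chosen with earlier results of these data known. Named were all 13 mitochondrial genes and, in each comparison and complex, the called nuclear gene with the smallest adjusted p in each direction. Fixed core subunits and tissue-restricted twins with their partners, the highest and lowest nuclear gene per complex by TPM, and by the same rule members of the related lists, were also named. Ndufs3, Ndufs5, Ndufs8, Ndufa1, Ndufa12, Ndufb7, Cox5b, Ndufv2, Ndufs7 and the complex I core split were added after their values were seen. One gene that the rule names is not reported here.

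Alternatives were RLE size factors, library totals, no filter, DESeq2 1.42.0, mitochondrial genes left out, a replicate block, leaving out each library in turn, and only the compared groups. VIL with replicate 1 alone was added after seeing the data. The series states 3 biological replicates per group. After group means were removed, same-numbered libraries correlated at 0.108 to 0.578 over 8427 genes in the 5-FU comparisons. For COL_cWRNE against COL_Control they correlated at 0.226 to 0.377 over 8396 genes. All were above 0.1, so the numbers were read as likely pairs in these 3. The correlations were -0.068 to 0.283 for COL_Control against MG_Control, -0.148 to 0.248 for VIL against COL_cWRNE and 0.027 to 0.346 for VIL against MG_Control. Replicate 2 held the most Y-linked counts in every group, so pairs are possible there too. The fits behind the printed values carry no block, so their p-values do not use any pairing. A blocked value is given where it changes a printed call of a named gene. No libraries of a group were duplicates (lowest chi-square per degree of freedom 10.6).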

Additional observations from a re-analysis of the deposited data

Results flagged for a closer look

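By the interaction test of edgeR's fit over all genes, the 5-FU effect differed between collagen with ENRW and Matrigel with ENR for 1 nuclear subunit gene. It also differed for 12 of 207 related genes, 7 higher (3.4%) and 5 lower (2.4%), where 1.88% of all genes were higher and 6.3% lower. Ndufc2 and the 5 related genes that the naming rule gave are given here, with differences as collagen minus Matrigel on the log2 scale. Of the 12 related genes, Ppara and Timmdc1, outside that rule, had the largest differences. These were -2.47 and -2.03 (adjusted p = 0.0261 and 0.00584, edgeR). Ndufc2 changed by 0.84 ± 0.12 with 5-FU in collagen and by 0.14 ± 0.12 in Matrigel, a difference of 0.70 (adjusted p = 0.0206); without COL_5FU replicate 2 it was 0.67 and not called (adjusted p = 0.0559). The complex III assembly factor Uqcc3 changed by 1.51 ± 0.18 in collagen and 0.37 ± 0.18 in Matrigel, a difference of 1.14 (adjusted p = 0.0147). The pyruvate dehydrogenase component Pdhx changed by 0.59 ± 0.10 in collagen and -0.02 ± 0.10 in Matrigel, a difference of 0.61 (adjusted p = 0.015). The mitochondrial ribosomal protein gene Mrps2 changed by 0.71 ± 0.10 in collagen and 0.14 ± 0.10 in Matrigel, a difference of 0.57 (adjusted p = 0.0222). Malate dehydrogenase Mdh2 changed by -0.25 ± 0.10 in collagen and 0.37 ± 0.10 in Matrigel, a difference of -0.62 (adjusted p = 0.0136). The uncoupling protein Ucp2 changed by -0.04 ± 0.08 in collagen and 0.37 ± 0.08 in Matrigel, a difference of -0.42 (adjusted p = 0.0447), which the replicate block left uncalled (adjusted p = 0.0516).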

How the results depend on the processing

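None of the 84 results on called single genes and none of the 7 differences in the ratio changed sign under any alternative that was run, but splits and medians did. With library totals the nuclear calls were 11 higher and 13 lower for COL_5FU against COL_Control and 2 higher and 12 lower for MG_5FU against MG_Control, and the all-gene medians there were -0.13 and -0.09. The nuclear median for MG_5FU against MG_Control, -0.01, was 0.11, 0.03 and 0.08 without MG_Control replicate 1 or 2 or MG_5FU replicate 2, that for VIL against COL_cWRNE, 0.04, was -0.05 without VIL replicate 1 and at 0 with library totals, and the mitochondrial median of the interaction, -0.18, was 0.10 without MG_5FU replicate 1. For the 84 results on single genes, 887 of 1087 alternative values kept their side of the threshold and 200 lost the call; causes were not tested. When TMM scaling was replaced by library totals, 14 nuclear and 2 mitochondrial genes were called for MG_5FU against MG_Control, 2 mitochondrial for COL_5FU against COL_Control, 13 nuclear and 7 mitochondrial for COL_cWRNE against COL_Control, and 7 mitochondrial for VIL against MG_Control. DESeq2 called 2219 genes in all, 3 nuclear and 1 mitochondrial in the interaction, 4 nuclear for COL_cWRNE against COL_Control, 2256 genes in all for VIL against COL_cWRNE and 6 mitochondrial for VIL against MG_Control. Without the filter, 5 nuclear genes were called in the interaction, 1 nuclear and 1 mitochondrial for COL_cWRNE against COL_Control and 1 nuclear for VIL against COL_cWRNE. With only the compared groups in the fit, 2 mitochondrial genes were called for MG_5FU against MG_Control, 13 nuclear and 6 mitochondrial for COL_cWRNE against COL_Control, 743 genes in all for VIL against COL_cWRNE and 32 nuclear for VIL against MG_Control. The replicate block left 1 nuclear gene for COL_cWRNE against COL_Control and moved no other count of calls past 1.5 times. With VIL replicate 1 alone, chosen after seeing the data, 9 nuclear genes were called against COL_cWRNE, 14 nuclear and 4637 genes in all against MG_Control, and the log2 ratio of mitochondrial to nuclear counts differed by 0.53 and 0.31. Without mt-Co1 and mt-Co3 the ratio differed by -0.31 instead of -0.13 for COL_Control against MG_Control. It differed by -0.30 instead of -0.09 for COL_cWRNE against COL_Control, and by 0.16 instead of 0.61 for VIL against MG_Control.

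Leaving out 1 library at a time gave these ranges. For MG_5FU against MG_Control, 4139 to 4610 genes were called in all, 7 to 10 nuclear and 2 to 7 mitochondrial, with a ratio difference of 0.16 to 0.36. For COL_5FU against COL_Control they were 4566 to 5584, 15 to 29, 1 to 4 and 0.01 to 0.17. For the interaction they were 931 to 1297, 0 to 1, 0 to 1 and -0.27 to -0.07. For COL_Control against MG_Control they were 3977 to 4755, 39 to 61, 6 to 12 and -0.16 to -0.10. For COL_cWRNE against COL_Control they were 1907 to 2669, 0 to 1, 0 to 1 and -0.12 to -0.06. For VIL against COL_cWRNE they were 351 to 2050, 0 to 2, 4 to 13 and 0.68 to 0.99. For VIL against MG_Control they were 5752 to 8604, 20 to 63, 2 to 5 and 0.46 to 0.77. With 3 libraries per group, changes smaller than the spread between libraries were not detectable.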
